A study of Mus musculus with 8 samples.

Results

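Most of the genes described here act in DNA repair and in the DNA damage response. A further 3, Rad54l2, Xrcc6bp1 and Ercc6l, match by symbol only and are counted with them. Parp6, Parp8, Parp10, Parp11 and Parp12 are counted as members of the Parp family, and no repair role is given to them here. All were chosen by gene symbol, as the members of the Fanc, Xrcc, Ercc, Msh, Mlh, Rad, Brca and Parp families together with Atr, Mdc1, Trp53bp1, Brip1, the DNA ligases Lig1, Lig3 and Lig4, and the DNA polymerases Polb, Pole, Polh, Poli, Polk, Poll, Poln and Polq. The cohesin gene Rad21 was left out. This gave 123 transcripts of 71 genes, out of 19077 transcripts of 12200 genes in the deposited tables. The rule itself reads only gene symbols, but it was set with earlier results of these data known.

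RNA was sequenced from testis cells of C57BL/6 mice at postnatal day 26, from 4 Tdrd6-/- and 4 Tdrd6+/- libraries. TDRD6 is a tudor domain protein of the chromatoid body, a perinuclear RNA granule of spermatids. In both genotypes the targeted Tdrd6 allele carries a human CD4 reporter that is translated from the Tdrd6 start codon, so the Tdrd6+/- controls have 1 disrupted copy as well. Cells that expressed the reporter were pulled out with magnetic beads against human CD4 and are labelled round spermatids, the haploid cells that follow meiosis. The unit is FPKM, the fragment number divided by transcript length and by library size, and the tables hold 1 pooled value per transcript and genotype. A ratio is given as the log2 of Tdrd6-/- over Tdrd6+/- after 0.1 was added to both values. Without values per library there is no SD and no test between the genotypes, so a transcript was counted as higher or lower when it was at least 1.5-fold apart and its mean FPKM was at least 1.

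DNA repair is divided by the kind of lesion. Base excision repair replaces damaged bases and seals single-strand breaks, nucleotide excision repair cuts out bulky lesions, mismatch repair corrects replication errors, and breaks of both strands are joined end to end or copied from a homologous molecule. Germ cells make such breaks on purpose in meiotic prophase and repair them by recombination, while ATR and MDC1 spread damage signalling over the unpaired sex chromosomes of spermatocytes. Spermatids have no sister chromatid or homolog left to copy from, and breaks appear in them again when histones are exchanged for protamines.

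The targeted gene set the genotypes apart. The Tdrd6 transcript with the most signal was at 40.6 FPKM in Tdrd6+/- and 1.29 FPKM in Tdrd6-/-. Another was at 16.0 and 0.174 FPKM, and the remaining one was at 0.540 FPKM in Tdrd6+/- and is listed at 0 in Tdrd6-/-.

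The germ cell markers also differed between the pooled samples. All 5 late spermatid markers were lower in Tdrd6-/-, with a summed level of 20412 FPKM in Tdrd6+/- and 5384 FPKM in Tdrd6-/-, and Prm1, a protamine gene, was at 5521 and 1162 FPKM. The 9 round spermatid marker transcripts all had negative log2 ratios, 3 of them were counted as lower (Izumo1, Tssk1 and Tssk2), and their sum was 1491 and 1080.0 FPKM. Of 11 spermatocyte marker transcripts 8 had positive ratios and 1, a minor Tbpl1 transcript, was counted as higher, with a median log2 ratio of 0.30. Their sum was 7143 FPKM in Tdrd6+/- and 5737 FPKM in Tdrd6-/-, most of it Ldhc, which was at 5634 and 4194 FPKM. The markers of other cells were low, with sums of 4.60 and 3.11 FPKM for spermatogonia, 27.3 and 26.7 FPKM for Sertoli cells, 27.8 and 26.6 FPKM for Leydig cells and 1.40 and 1.83 FPKM for blood cells. Zbtb16 of spermatogonia, Sox9, Amh and Rhox5 of Sertoli cells, and Ptprc and the globin genes of blood had no entry in the tables. By flow cytometry, the study reported similar fractions of round spermatids and of spermatocytes in the sorted cells of both genotypes. The part of these marker levels in the repair gene values was not tested, and in bulk RNA fewer cells of a type and less RNA per cell cannot be told apart.

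DNA repair transcripts leaned towards higher values in Tdrd6-/-. Of the 123 transcripts, 95 transcripts of 64 genes had a mean FPKM of at least 1, and 28 did not. Of the 95, 14 (14.7%) were at least 1.5-fold higher in Tdrd6-/-, where 7.96% of all 14887 transcripts past the same minimum were. Only 2 (2.11%) were at least 1.5-fold lower, where 8.78% of all were. The other 79 were less than 1.5-fold apart. The median log2 ratio of the repair transcripts was 0.17, with quartiles of 0.0011 and 0.45, against 0.00029 over all transcripts. A positive ratio was found for 72 repair transcripts (75.8%) and a negative one for 23, while 50.0% of all transcripts had a positive ratio.

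The transcripts past the fold were mostly of low level. Polb, Poll and Xrcc1, which had the most abundant repair transcripts, lay on the line of equal values. The counts at low level are to be read against a wide scatter, since 24.8% of all transcripts with a mean of 1 to 2 FPKM were at least 1.5-fold apart in either direction, against 20.5% at 2 to 5 FPKM, 15.7% at 5 to 10 FPKM, 12.1% at 10 to 30 FPKM and 10.5% at 30 FPKM and above. Of the repair transcripts, 7 of 21 at 1 to 2 FPKM were higher and 1 was lower, and 4 of 30 at 2 to 5 FPKM were higher and 1 was lower. Of all transcripts, 14.6% were higher and 10.2% lower at 1 to 2 FPKM, and 11.2% and 9.33% at 2 to 5 FPKM. Above 5 FPKM 3 of 44 were higher and 0 were lower, and those were Msh6, Mdc1 and a transcript of Lig3. Of all transcripts at 5 FPKM or more, 4.45% were higher and 8.07% lower. At 30 FPKM and above 0.982% of all were higher and 9.53% lower, and 0 of 7 repair transcripts were either.

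**Figure D1:**
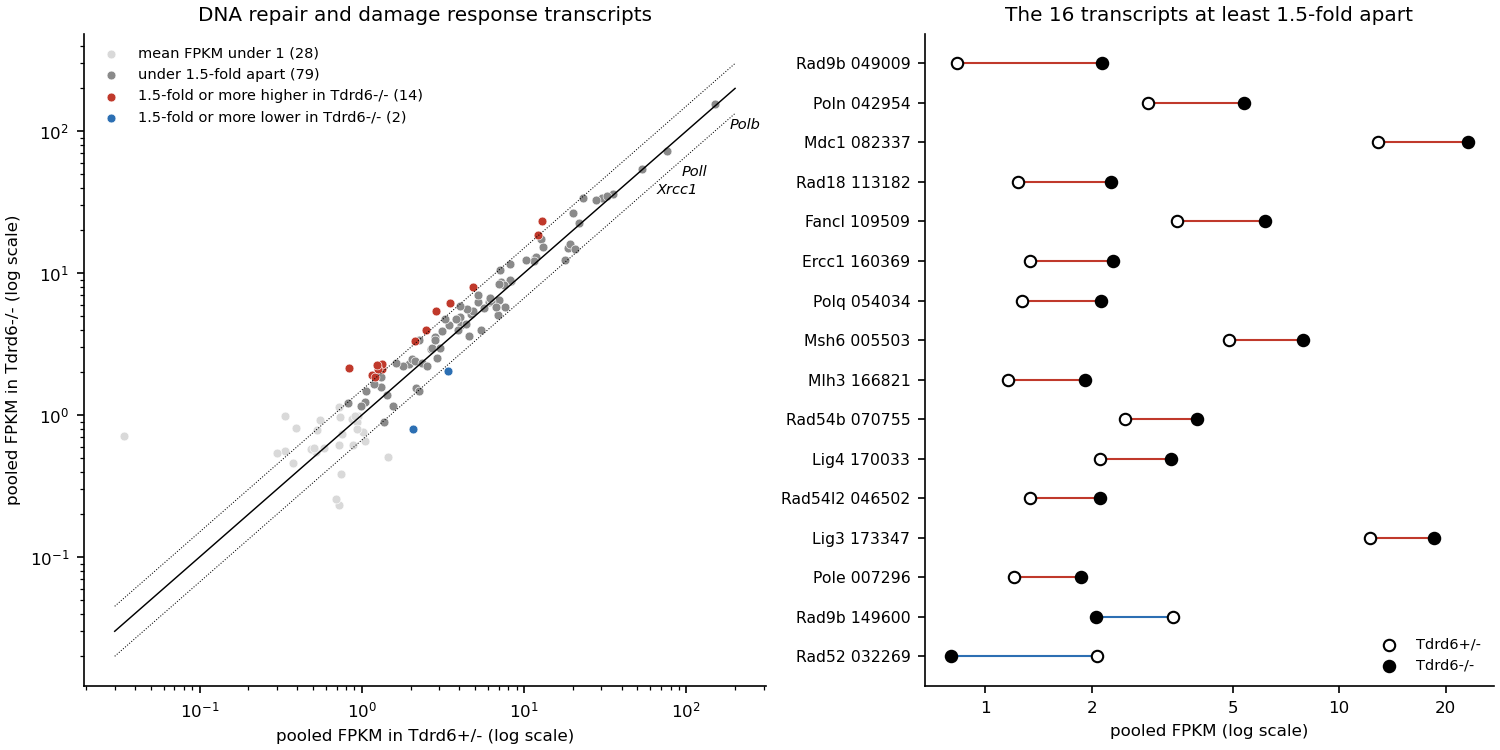
Left, pooled FPKM of 123 DNA repair transcripts in Tdrd6+/- (horizontal) and Tdrd6-/- (vertical), both on log scales, with the line of equal values and dotted lines 1.5-fold to each side, drawn without the added 0.1. Right, the 16 transcripts counted as higher (red lines) or lower (blue lines), named by gene and the last digits of the transcript identifier, with open circles for Tdrd6+/- and filled circles for Tdrd6-/-; most of them lie between 1 and 8 FPKM, and Mdc1 and Lig3 lie above 10 FPKM.

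When the FPKM of all listed transcripts of a gene were added up, fewer genes were past the fold. Of 65 genes with a summed mean of at least 1 FPKM, 5 were higher, where 4.53% of all genes were, and 0 were lower, where 6.62% of all genes were. The 5 were Mdc1, Polq, Msh6, Rad54b and Rad54l2, of which Rad54l2 matches by symbol only. Sums above 1-fold were found for 51 genes and below for 14, and the median log2 ratio was 0.16. Genes with 1 listed transcript need no division of reads between listed isoforms. Among them 4 of 33 were higher, where 4.19% of all such transcripts were, and 0 were lower, where 7.59% were, with 28 of 33 above 0 and a median of 0.22.

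**Figure D2:**
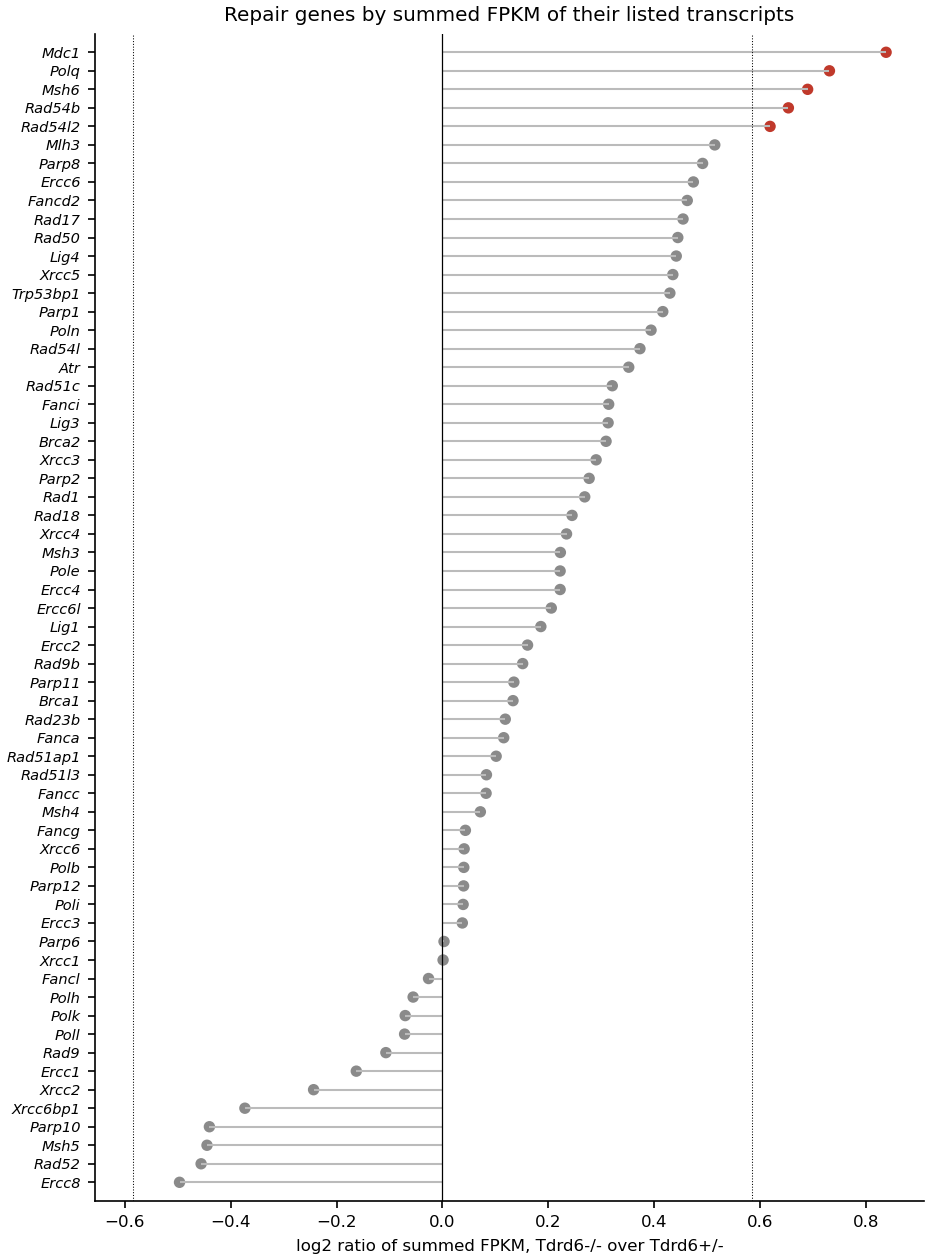
Log2 ratio of the summed FPKM of 62 of the 65 repair genes with a mean sum of at least 1, ordered by ratio; dotted lines mark 1.5-fold. Only Mdc1, Polq, Msh6, Rad54b and Rad54l2 (red) lie past the upper line, and Ercc8 has the lowest ratio at -0.50.

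Among the genes of damage signalling, Mdc1 and a Rad9b transcript were past the fold upwards and another Rad9b transcript downwards. MDC1 is the mediator that binds phosphorylated histone H2AX and holds repair factors at the break. Its only listed transcript (mm9, chr17:35978460-35996615, 7335 nt) was at 12.9 FPKM in Tdrd6+/- and 23.1 FPKM in Tdrd6-/-, a log2 ratio of 0.84. Both values lie well above those of the other transcripts past the fold except Lig3. With the log2 ratio taken relative to the median of transcripts over 5000 nt, Mdc1 was at 0.49 and no longer past the fold. Relative to the median of its 3' UTR class it was at 0.64, and with a pseudocount of 1 at 0.80, both past the fold.

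ATR, the kinase that starts signalling at single-stranded DNA, was the most abundant of the group, and its isoforms differed in sign. The long transcript (ENSMUST00000034980, chr9:95758016-95852063, 8074 nt) was at 23.3 FPKM in Tdrd6+/- and 33.6 FPKM in Tdrd6-/-, a log2 ratio of 0.53. The short one (ENSMUST00000098471, 1821 nt) was at 7.60 and 5.81 FPKM, a log2 ratio of -0.38. The short transcript covers only the start of the gene and ends its reading frame in other sequence, as the last 30 bases of the coding part show, with the stop codon in capitals (GENCODE M1 models on mm9, plus strand).
Atr ENSMUST00000034980: atgtaccttggttggaccccatatatgTAA
Atr ENSMUST00000098471: atgtggtactctcaagaattctgttgcTGA
Neither was past the fold, and the sum of both was 30.9 and 39.4 FPKM.

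RAD9, RAD1 and HUS1 form a ring that is loaded at damaged DNA by RAD17, and RAD9B is a testis-enriched relative of RAD9. Rad17 was at 12.7 FPKM in Tdrd6+/- and 17.4 FPKM in Tdrd6-/-, a log2 ratio of 0.45. The main Rad1 transcript was at 3.45 and 4.32 FPKM, a log2 ratio of 0.32, and Rad9 was at 6.95 and 6.45 FPKM, a log2 ratio of -0.11. None of these was past the fold.

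Rad9b was the only gene with a transcript on each side of the fold. ENSMUST00000049009 was at 0.829 FPKM in Tdrd6+/- and 2.14 FPKM in Tdrd6-/-, which at a log2 ratio of 1.27 was the highest ratio of all repair transcripts past the minimum. ENSMUST00000149600 was at 3.38 and 2.05 FPKM, a log2 ratio of -0.69. The most abundant form, ENSMUST00000117263, was at 5.19 and 6.26 FPKM, a log2 ratio of 0.27. The first of these has 1 base and the second has 2 bases that lie in no other listed Rad9b transcript, so their FPKM values rest on how shared reads were divided. The 3 reading frames end in different sequence, again shown with the stop codon in capitals (mm9, chr5, minus strand).
Rad9b ENSMUST00000049009: agcgacagtgaggaggacgtgagtggcTGA
Rad9b ENSMUST00000149600: ctgcatgttctttggagctgtatcttgTGA
Rad9b ENSMUST00000117263: ggcagaaagcatgcagtgaagtcggtgTGA
Their sum was 9.40 FPKM in Tdrd6+/- and 10.5 FPKM in Tdrd6-/-, a log2 ratio of 0.15.

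53BP1, encoded by Trp53bp1, protects broken ends from resection. Its 7555 nt transcript lay just under the fold, at 2.25 and 3.39 FPKM (log2 ratio 0.57), and its 9621 nt transcript was at 2.03 and 2.49 FPKM (log2 ratio 0.28). The exons of the former overlap those of Tubgcp4 on the opposite strand by 1873 nt. Of the 11 transcripts of this group past the minimum, 8 had positive ratios, 2 were higher and 1 was lower, and the median of 0.32 was the highest of the role groups. Atm had no entry in the tables.

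**Figure D3:**
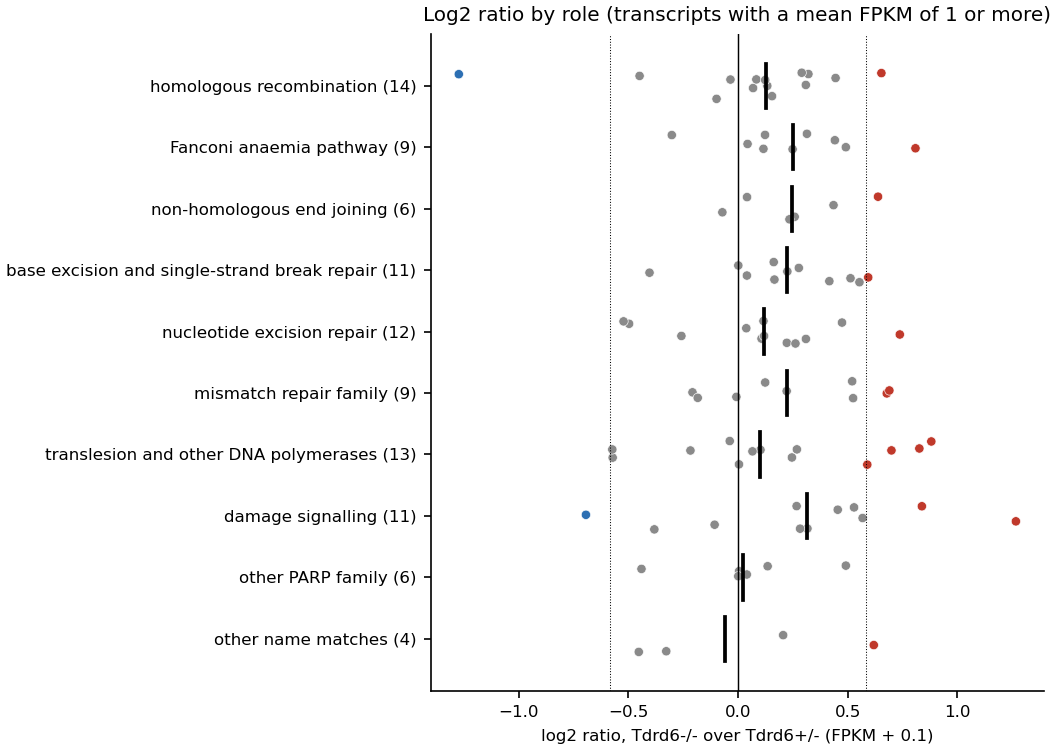
Log2 ratio of Tdrd6-/- over Tdrd6+/- for each of 95 repair transcripts with a mean FPKM of at least 1, by role, with the number of transcripts in brackets; black bars are group medians, the thin line is the median of all transcripts and dotted lines mark 1.5-fold. The group medians run from -0.06 for the 4 transcripts with a matching symbol but no role in these pathways to 0.32 for damage signalling.

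Homologous recombination, the copying of a break from an intact molecule, was represented at low level. None of its 18 transcripts reached 10 FPKM. The most abundant was Rad51ap1, whose product takes part in strand pairing, at 8.31 FPKM in Tdrd6+/- and 8.81 FPKM in Tdrd6-/- for 1 isoform and 6.16 and 6.72 FPKM for another that differs by a few bases.

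Rad54b, which encodes a motor protein of recombination, was past the fold. It has 1 listed transcript (chr4:11486119-11542952) at 2.48 FPKM in Tdrd6+/- and 3.96 FPKM in Tdrd6-/-, a log2 ratio of 0.65. Of the breast cancer susceptibility genes, whose products direct breaks into recombination, Brca1 was at 2.70 and 2.97 FPKM (log2 ratio 0.13) and Brca2 was at 4.47 and 5.56 FPKM (log2 ratio 0.31). Rad50, part of the complex that senses and trims the ends, was at 1.18 and 1.65 FPKM, a log2 ratio of 0.44.

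Rad51c, Rad51l3, Xrcc2 and Xrcc3, whose related products assist strand exchange, did not share a sign. Rad51c was at 3.80 and 4.78 FPKM (log2 ratio 0.32) and Xrcc3 at 1.79 and 2.22 FPKM (log2 ratio 0.29). The longer Xrcc2 transcript was at 6.98 and 6.52 FPKM and the shorter at 5.42 and 3.94 FPKM, so that both were on the negative side. The Rad51l3 transcripts were at 2.14 and 2.39 FPKM and at 1.43 and 1.39 FPKM.

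Rad52, whose product anneals single strands, had the lowest ratio of all repair transcripts past the minimum, and the value rests on its isoforms. ENSMUST00000032269 was at 2.07 FPKM in Tdrd6+/- and 0.799 FPKM in Tdrd6-/-, a log2 ratio of -1.27. Its near copy ENSMUST00000162461 was at 0.0341 and 0.710 FPKM and under the minimum. The former has 5 bases and the latter 3 bases that the other lacks, and both reading frames end alike. Their sum was 2.11 and 1.51 FPKM, a log2 ratio of -0.46, which is not past the fold. Over the group 10 of 14 transcripts had positive ratios, 1 was higher and 1 was lower, and the median was 0.13. Both Rad54l transcripts were under the minimum, as were 2 others of the group.

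The Fanconi anaemia proteins unhook DNA crosslinks. A core complex that includes FANCA, FANCC, FANCG and the ubiquitin ligase FANCL marks FANCD2 and FANCI. Fancg had the transcript of highest level, at 21.8 FPKM in Tdrd6+/- and 22.5 FPKM in Tdrd6-/-. Fanca was at 4.74 and 5.14 FPKM. The target genes were further apart, since the main Fancd2 transcript was at 8.17 and 11.5 FPKM (log2 ratio 0.49) and Fanci at 2.83 and 3.54 FPKM (log2 ratio 0.31).

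Fancl had isoforms of opposite sign. ENSMUST00000109509, of 1187 nt, was at 3.49 FPKM in Tdrd6+/- and 6.19 FPKM in Tdrd6-/-, a log2 ratio of 0.81, and was counted as higher. ENSMUST00000004120, of 2724 nt, was at 18.6 and 15.1 FPKM, a log2 ratio of -0.30. Both end their reading frame in the same 30 bases, while a minor transcript at 1.07 and 1.48 FPKM ends elsewhere (mm9, chr11, plus strand, stop codon in capitals).
Fancl ENSMUST00000004120 and ENSMUST00000109509: accttgaaaatgtctgggagaaaacctTGA
Fancl ENSMUST00000134445: agggttgagcaccagcagacagagtttTAA
The transcript counted as higher has no base of its own, and its exons overlap those of Vrk2 on the opposite strand. The sum over Fancl was 23.2 FPKM in Tdrd6+/- and 22.8 FPKM in Tdrd6-/-. Of the 9 transcripts of the pathway past the minimum, 8 had positive ratios and the median was 0.25. Brip1, Fance, Fancm and 2 of the 3 Fancc transcripts were under the minimum, and Fancb and Fancf had no entry.

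End joining ligates broken ends without a template. XRCC5 and XRCC6, the Ku proteins, bind the ends, and LIG4 with XRCC4 seals them after polymerase lambda, encoded by Poll, fills gaps. Poll was the most abundant, at 75.7 FPKM in Tdrd6+/- and 72.0 FPKM in Tdrd6-/-, and Xrcc4 was at 27.6 and 32.5 FPKM (log2 ratio 0.23). Xrcc5 was at 5.20 and 7.06 FPKM (log2 ratio 0.44) and Xrcc6 at 6.09 and 6.27 FPKM (log2 ratio 0.041), so the Ku subunits were not equally far apart.

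For Lig4 the shorter of its transcripts was past the fold. ENSMUST00000170033 was at 2.11 FPKM in Tdrd6+/- and 3.35 FPKM in Tdrd6-/-, a log2 ratio of 0.64. ENSMUST00000095476 was at 2.83 and 3.40 FPKM, a log2 ratio of 0.26. The sum was 4.94 and 6.75 FPKM, a log2 ratio of 0.44. All 6 transcripts of the group were past the minimum, 5 with a positive ratio, and the median was 0.25.

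Base excision and single-strand break repair held the most abundant repair gene. Polb, which encodes the polymerase that fills the gap after a base is removed, was at 150.2 FPKM in Tdrd6+/- and 155 FPKM in Tdrd6-/-, above 95.4% of all transcripts past the minimum by its mean. Xrcc1, the scaffold that brings the polymerase and ligase III together, was at 53.7 and 53.8 FPKM, a log2 ratio of 0.0013. Parp1, the sensor of strand breaks, was at 19.9 and 26.6 FPKM (log2 ratio 0.42), and Parp2, its relative, was at 4.03 and 4.91 FPKM (log2 ratio 0.28).

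Lig3 encodes the ligase that works with XRCC1, and a germ cell form with another C-terminus is known. It had 6 listed transcripts, the most of any repair gene. They fall into forms with different ends of the reading frame (mm9, chr11, plus strand, stop codon in capitals).
Lig3 ENSMUST00000080461: aggaaagctatgcagacaggcaggagaTAG
Lig3 ENSMUST00000173347, ENSMUST00000092849 and ENSMUST00000173727: cggaaacggaggctgatagctccctgcTAG
ENSMUST00000080461 was the most abundant, at 30.2 FPKM in Tdrd6+/- and 33.8 FPKM in Tdrd6-/-, a log2 ratio of 0.16. ENSMUST00000173347 was at 12.2 and 18.5 FPKM, a log2 ratio of 0.59, and was counted as higher, just past the fold. With a pseudocount of 1, or relative to its length class or 3' UTR class, it was under the fold. It has no base of its own, so its value depends on the division of reads with ENSMUST00000092849, at 7.09 and 10.5 FPKM (log2 ratio 0.55), and ENSMUST00000173727, at 1.56 and 1.15 FPKM (log2 ratio -0.40). Added up, the 3 transcripts that share a coding end were at 20.9 FPKM in Tdrd6+/- and 30.1 FPKM in Tdrd6-/-, a log2 ratio of 0.53, which is under the fold. The sum of all Lig3 transcripts was 52.9 and 65.8 FPKM, a log2 ratio of 0.31.

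Lig1, the ligase of replication and long-patch repair, was lower in level. Its transcripts were at 4.84 and 5.44 FPKM and at 1.95 and 2.30 FPKM. In the group 10 of 11 transcripts had positive ratios, 1 was higher and 0 were lower, and the median was 0.22. Parp3 and 1 Lig3 transcript were under the minimum.

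In nucleotide excision repair the helicase and damage recognition genes were close to equal. Ercc3, a helicase of the TFIIH complex, was at 35.4 FPKM in Tdrd6+/- and 36.3 FPKM in Tdrd6-/-. Ercc2, the other TFIIH helicase, was at 11.7 and 12.7 FPKM for its main transcript and at 3.13 and 3.90 FPKM for the other. Rad23b, whose product stabilises the lesion sensor XPC, was at 11.9 and 13 FPKM.

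ERCC1 and ERCC4 form the nuclease that cuts on the 5' side of a lesion. The main Ercc1 transcript, ENSMUST00000003645, was at 19.2 FPKM in Tdrd6+/- and 16.0 FPKM in Tdrd6-/-, a log2 ratio of -0.26. The minor ENSMUST00000160369 was at 1.34 and 2.30 FPKM, a log2 ratio of 0.74, and was counted as higher. The Ercc1 sum was 20.5 and 18.3 FPKM, and Ercc4 was at 13.1 and 15.3 FPKM (log2 ratio 0.22).

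The genes that couple this pathway to transcription differed in sign. Ercc6 was at 1.31 and 1.85 FPKM (log2 ratio 0.47), and Ercc8, whose product works with that of Ercc6 at stalled RNA polymerase, was at 20.7 and 14.7 FPKM (log2 ratio -0.50). Neither was past the fold, though Ercc8 had the lowest gene sum ratio of all 65 repair genes. Of 12 transcripts in the group past the minimum, 9 had positive ratios, 1 was higher, and the median was 0.12. Ercc5 was under the minimum.

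The mismatch repair family corrects replication errors, with MSH3 and MSH6 among the proteins that recognise them, and its members MSH4, MSH5 and MLH3 serve meiotic crossing over. Msh6 was past the fold as a gene with 1 listed transcript (chr17:88374390-88390223, 4254 nt), at 4.87 FPKM in Tdrd6+/- and 7.92 FPKM in Tdrd6-/-, a log2 ratio of 0.69. Its exons overlap those of Fbxo11 on the opposite strand by 25 nt.

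Msh3 was the most abundant of the family. Its short transcript was at 8.21 and 8.95 FPKM (log2 ratio 0.12) and its long one at 4.05 and 5.86 FPKM (log2 ratio 0.52). Neither was past the fold.

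The meiotic members differed in sign. ENSMUST00000166821 of Mlh3 was at 1.16 FPKM in Tdrd6+/- and 1.92 FPKM in Tdrd6-/- (log2 ratio 0.68), and was counted as higher. A near copy, ENSMUST00000019378, was at 3.27 and 4.75 FPKM (log2 ratio 0.52), and the Mlh3 sum was 5.49 and 7.89 FPKM (log2 ratio 0.51). The main Msh4 transcript was at 2.34 and 2.33 FPKM and a longer one at 1.05 and 1.24 FPKM. The Msh5 sum went the other way, at 4.36 and 3.18 FPKM (log2 ratio -0.44). Its only transcript past the minimum, ENSMUST00000174741, was at 2.53 and 2.22 FPKM (log2 ratio -0.18). Under the minimum, ENSMUST00000007250 was at 1.46 and 0.504 FPKM and ENSMUST00000097338 at 0.374 and 0.460 FPKM. Over the family 6 of 9 transcripts had positive ratios, 2 were higher, 0 were lower, and the median was 0.22. The other 6, with transcripts of Mlh3, Msh3 and Msh5 among them, were under the minimum.

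The group of translesion and other DNA polymerases, in which the ubiquitin ligase gene Rad18 was counted, held 4 of the 14 higher transcripts, each at low level. They were 30.8% of its 13 transcripts past the minimum, where 7.96% of all transcripts were higher. Of all transcripts, 14.6% were higher at 1 to 2 FPKM and 11.2% at 2 to 5 FPKM. Polq encodes polymerase theta, which joins ends through short homologies. Its main transcript (ENSMUST00000054034, chr16:37011872-37095502, 8551 nt) was at 1.27 FPKM in Tdrd6+/- and 2.12 FPKM in Tdrd6-/-, a log2 ratio of 0.70, and the gene sum was 1.56 and 2.66 FPKM. Pole, the leading-strand replicative polymerase, lay nearest to the fold from above, at 1.21 and 1.86 FPKM for its 7163 nt transcript (log2 ratio 0.59).

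Poln encodes polymerase nu, which is found mainly in testis, and its isoforms diverged. ENSMUST00000042954 was at 2.88 FPKM in Tdrd6+/- and 5.39 FPKM in Tdrd6-/-, a log2 ratio of 0.88. ENSMUST00000101332 was at 1.37 and 0.891 FPKM, a log2 ratio of -0.57, just under the fold. All listed Poln forms share the end of the coding part, none has a base of its own, and each overlaps exons of Haus3 on the same strand by 56 nt. The sum was 4.95 and 6.53 FPKM, a log2 ratio of 0.39.

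RAD18 is the ubiquitin ligase that calls translesion polymerases to stalled forks. Its main transcript was at 10.3 and 12.4 FPKM (log2 ratio 0.27). A minor form, ENSMUST00000113182, was at 1.23 and 2.27 FPKM (log2 ratio 0.83) and counted as higher. This form has no base of its own, so its value rests on how shared reads were divided. The gene sum was 24.2 FPKM in Tdrd6+/- and 28.7 FPKM in Tdrd6-/-, a log2 ratio of 0.24.

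Polh, Poli and Polk encode Y-family polymerases that copy past damaged bases, and the main transcript of each was close to equal. The Polh transcripts were at 6.21 and 6.68 FPKM and at 6.74 and 5.79 FPKM. The main Poli transcript, the most abundant of the group, was at 11.6 and 12.1 FPKM, and a second one at 2.24 and 1.48 FPKM (log2 ratio -0.57) lay just under the fold. The main Polk transcript was at 3.03 and 2.95 FPKM. In the group 9 of 13 transcripts had positive ratios and the median was 0.10, while 7 transcripts of Pole, Poli, Polk, Poln and Polq were under the minimum.

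The PARP genes outside single-strand break repair had a median near 0. Of Parp6, Parp8, Parp10, Parp11 and Parp12, which encode ADP-ribosyl transferases, none was past the fold, and the median was 0.022. Parp11 had the transcript of highest level, at 7.51 and 8.25 FPKM, and Parp10 had the lowest ratio, at 6.91 and 5.06 FPKM (log2 ratio -0.44). Parp8 was at 1.62 and 2.32 FPKM (log2 ratio 0.49).

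Of 3 genes whose symbols match but whose products are not part of these pathways, Rad54l2 was past the fold. It encodes a helicase-like partner of nuclear receptors, and its 9324 nt transcript was at 1.33 FPKM in Tdrd6+/- and 2.1 FPKM in Tdrd6-/-, a log2 ratio of 0.62. The Xrcc6bp1 transcripts were at 4.57 and 3.63 FPKM and at 2.17 and 1.56 FPKM. Ercc6l was at 0.991 and 1.16 FPKM.

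Isoforms of 1 repair gene did not always share a sign. Of the 71 genes 32 had more than 1 listed transcript, and 23 had at least 2 past the minimum. Among these 23, 11 had transcripts on both sides of 0, 10 had all transcripts above 0, and 2 (Xrcc2 and Xrcc6bp1) had all below 0. Some of the 11 lay close to 0 on 1 side, such as Msh4 at -0.0075 and 0.22. The median distance between the highest and the lowest log2 ratio of a gene was 0.35. These isoform counts and this distance were not taken over all genes, so they cannot be read as particular to repair genes. For Rad9b, Poln, Fancl, Ercc1, Rad18, Lig3, Lig4, Mlh3, Pole and Rad52 a transcript was past the fold and the gene sum was not.

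**Figure D4:**
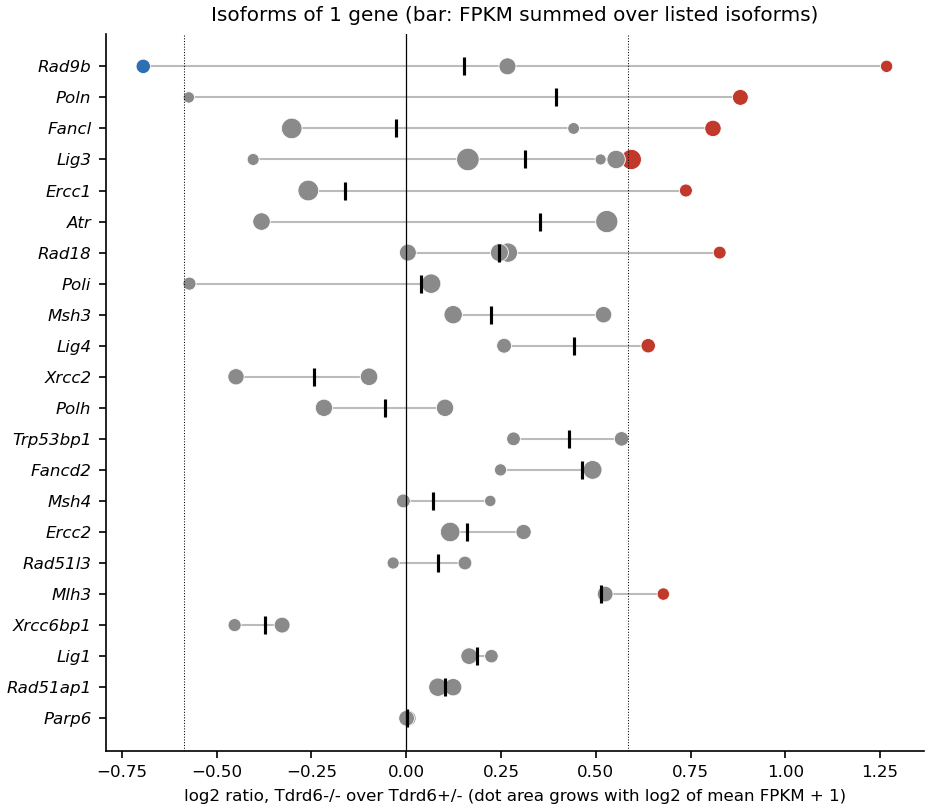
Log2 ratio of each transcript (dots, larger with higher mean FPKM; red and blue, at least 1.5-fold higher or lower) of 22 of the 23 repair genes with at least 2 transcripts past the minimum, ordered by the distance between isoforms; black bars are the ratio of the FPKM summed over all listed transcripts of the gene. The sums of Rad9b, Poln, Fancl, Lig3 and Ercc1 lie between the dotted 1.5-fold lines although transcripts of each lie outside.

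Long transcripts had higher ratios, among repair genes and among all genes. Of the repair transcripts over 5000 nt, all 15 had positive ratios and 5 were higher (Mdc1, Mlh3, Pole, Polq and Rad54l2), with a median of 0.52. The median of all transcripts over 5000 nt was 0.35, and 84.4% of them had positive ratios. At 3000 to 5000 nt the median was 0.22 for 24 repair transcripts and 0.18 for all, and at 2000 to 3000 nt it was 0.043 for 31 repair transcripts and 0.036 for all. At 1000 to 2000 nt the 17 repair transcripts had a median of 0.23 where all transcripts had -0.16, and up to 1000 nt the 8 repair transcripts had -0.26 where all had -0.31.

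Repair transcripts are longer than most, mainly in the coding part. Their median total length was 2577 nt against 2228 nt for all, the coding part 1869 against 1170 nt and the 3' UTR 475 against 542 nt. Across the 95 repair transcripts, which are not independent replicates and share the same pooled libraries, the rank correlation of the log2 ratio was 0.40 with total length, 0.45 with coding length and 0.14 with 3' UTR length. Across all annotated transcripts, 14747 for total length and 14719 for the other parts, it was 0.47, 0.41 and 0.31. With each ratio taken relative to the median of its length class, 8 of the 95 repair transcripts were at least 1.5-fold higher and 5 lower, and the median was 0.087. On that scale 6.50% of all transcripts were higher and 6.89% lower. The excess of higher over lower repair transcripts was smaller on that scale, and the part of length in it was not tested. Mdc1, Msh6, Polq, Mlh3, Pole, Rad54l2, Lig3 and Lig4 were then no longer past the fold, nor was the lower Rad9b transcript. In turn the minor Fancl transcript and a Lig3 transcript (ENSMUST00000131537) were then past it upwards. Parp10, at -0.62, and the Poli, Poln and Lig3 transcripts ENSMUST00000161542, ENSMUST00000101332 and ENSMUST00000173727, at -0.61, -0.61 and -0.59, were then past it downwards.

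**Figure D5:**
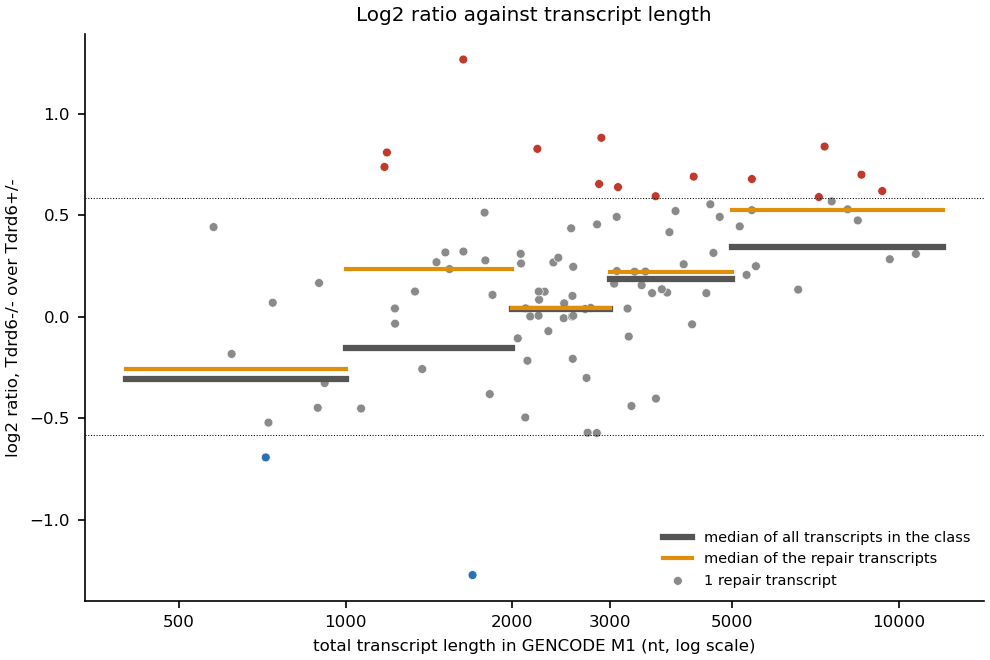
Log2 ratio of each of the 95 repair transcripts (dots; red and blue, at least 1.5-fold higher or lower) against total transcript length on a log scale; grey bars are the medians of all transcripts in 5 length classes and orange bars those of the repair transcripts. Both sets of bars are lowest up to 1000 nt and highest over 5000 nt, and they are furthest apart at 1000 to 2000 nt.

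By the 3' UTR class of the deposited tables, the repair transcripts had higher medians than all transcripts in each. In the short class (up to 350 nt) the median was 0.086 for 42 repair transcripts and -0.17 for all, and in the medium class 0.24 for 42 and 0.028 for all. In the long class (over 1500 nt) it was 0.28 for 9 and 0.20 for all. Among transcripts with a coding part over 2000 nt, the median in the short class was 0.22 for 21 repair transcripts and 0.22 for all, in the medium class 0.37 for 20 and 0.24 for all, and in the long class 0.57 for 5 and 0.33 for all. With a shorter coding part it was 0.0010 for 21 and -0.24 for all in the short class, 0.12 for 22 and -0.044 for all in the medium class, and 0.13 for 4 and 0.13 for all in the long class.

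The rest of the repair pathway had a similar median, with transcripts past the fold in both directions. A list of 76 further repair and damage response genes gave 94 transcripts, of which 71 were past the minimum. Of these, 9 (12.7%) were higher, among them transcripts of Helq, Mcm8, Mcm9, Slx4, Topbp1, Trp53 and Uimc1. Another 5 (7.04%) were lower, among them transcripts of Ddb1, Mgmt, Tdp1 and Xpa. Of all transcripts past the minimum 7.96% were higher and 8.78% lower. The median of the 71 was 0.18. Some of these counts rest on 1 of several isoforms. The lower Ddb1 transcript was at 2.77 and 1.21 FPKM, while its main one was at 24.1 and 27.4 FPKM. The higher Trp53 transcript was at 1.02 and 1.70 FPKM, while others under the minimum had negative ratios. Topbp1, which activates ATR, was at 5.76 FPKM in Tdrd6+/- and 9.22 FPKM in Tdrd6-/- (log2 ratio 0.67). Atrip, the partner of ATR, was at 3.22 and 4.81 FPKM (log2 ratio 0.57) and under the fold. H2afx, which encodes the histone that MDC1 binds once phosphorylated, went the other way at 305 and 242.5 FPKM (log2 ratio -0.33). Mgmt, which removes alkyl groups from guanine, was at 3.94 and 2.41 FPKM (log2 ratio -0.69).

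The genes of the synaptonemal complex and meiotic cohesin, which are also active in meiotic prophase, gave 17 transcripts past the minimum with a median of 0.24. In this list 1 transcript (5.88%) was higher (Stag3) and 2 (11.8%) were lower (Hormad2 and Syce3), and 9 of 17 had positive ratios. Of all transcripts past the minimum, 7.96% were higher and 8.78% lower. Hormad1 stands in this list and among the further repair genes, and Sycp1 and Sycp3 stand in this list and among the spermatocyte markers.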

How the data were processed

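RNA from 4 Tdrd6-/- and 4 Tdrd6+/- testis cell preparations was sequenced. The labels name poly-dT enrichment and the study's methods ribosomal RNA depletion before a directional library kit. Reads were aligned to mm9, and the tools credited in the submitters' notes are Cuffdiff, Cufflinks 2.1.1, Bowtie2 2.10 and TopHat2 2.0.9. The FPKM values deposited by the authors are 1 pooled value per genotype and transcript, in 3 tables by 3' UTR class. The same tables hold the authors' own log2 fold change, test statistic, p-value and q-value, which were not used. Depth per library and the spread between libraries are not in these values, so the precision of a single FPKM is unknown and no interval could be given. Whether strand was used in counting is not given in the sources used here, so reads of antisense partners cannot be told apart. Exons of 33 repair transcripts overlap another protein-coding gene on either strand, and 3 of these transcripts were counted as higher or lower.

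Each transcript identifier was taken once (19882 entries, 793 identifiers in more than 1 table). Ratios were log2 of Tdrd6-/- over Tdrd6+/- after adding 0.1, transcripts with a mean FPKM under 1 were set aside, and a fold of 1.5 was counted as a difference. Lengths, positions, overlaps and coding ends came from GENCODE M1 on mm9, not the Ensembl 67 annotation of the study, and 183 identifiers, none of them repair transcripts, had no entry. Python 3.11.15, numpy 2.4.6, pandas 2.3.3 and matplotlib 3.10.9 were used, and the counting was tested on simulated data. The genes named are Tdrd6, each repair transcript past the fold, the 10 of highest level, the 3 just inside and the 3 just outside the fold, the most abundant of each role, those with several transcripts past the minimum, those under it by role, and genes of the other lists past the fold. Further repair genes named beside these (among them Rad17, Rad51c, Brca2, Parp2, Ercc8, Atrip and H2afx) were chosen for their roles after their values had been seen. Some genes that this rule names are not reported here or drawn with a name, though they enter the counts. Members, lists and rules were chosen with earlier results of these data known. Alternatives were other pseudocounts, minima, folds and counting units, and ratios relative to the median of all transcripts, of a length class or of a 3' UTR table.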

Additional observations from a re-analysis of the deposited data

How the results depend on the processing

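The median log2 ratio of the repair transcripts stayed above 0 under all 11 alternatives that give one, from 0.087 to 0.22, but the counts depended on the settings. Against 14 higher and 2 lower, there were 5 and 1 with a pseudocount of 1, 15 and 4 with none, 20 and 7 with no minimum, 3 and 0 at a mean FPKM of at least 5, 8 and 5 relative to the length class, 7 and 1 with 1 transcript per gene, 5 and 0 with FPKM summed per gene, and 1 and 1 at a fold of 2. Over all transcripts the shares higher and lower were 4.46% and 6.16% with a pseudocount of 1 and 8.59% and 9.14% with none. They were 10.4% and 10.4% with no minimum, 4.45% and 8.07% at 5 FPKM, and 6.50% and 6.89% relative to the length class. They were 5.41% and 7.30% with 1 transcript per gene, 4.53% and 6.62% with summed FPKM, and 2.06% and 2.42% at a fold of 2. With genes of 1 listed transcript, an alternative chosen after the data were seen, there were 4 and 0, where 4.19% and 7.59% of all were. The counts were 14 and 2 relative to the median of all transcripts or without transcripts in more than 1 table, and 16 and 2 relative to the 3' UTR table. The shares of all were 7.93% and 8.78%, 7.85% and 8.89%, and 8.31% and 7.27%, in that order. The repair transcripts counted were 95, but 123 with no minimum, 44 at 5 FPKM and 93 without transcripts in more than 1 table. They were 64 with 1 transcript per gene and 33 for genes of 1 listed transcript, and 65 genes were summed. Relative to the length class Mdc1, Msh6, Polq, Mlh3, Pole, Rad54l2, Lig3, Lig4 and the lower Rad9b transcript were no longer past the fold while Parp10, Fancl ENSMUST00000134445, Poli ENSMUST00000161542, Poln ENSMUST00000101332 and Lig3 ENSMUST00000131537 and ENSMUST00000173727 were, and relative to the 3' UTR table Lig3 and Rad54l2 were not while the long Atr transcript was, at 0.69. With a pseudocount of 1, 10 of the 16 transcripts past the fold were not. None of the 16 changed sign under any scaling or pseudocount, but of the other transcripts followed through these settings (34 with the 16) 3 did, relative to the length class (Lig3 ENSMUST00000080461 from 0.16 to -0.020, Parp11 from 0.14 to -0.048 and Xrcc1 from 0.0013 to -0.035) and, for Parp11, relative to the 3' UTR table (-0.062). No paired analysis was possible because the tables hold 1 pooled value per genotype, and for the same reason no library could be left out. The FPKM values carry no depth, so differences at 1 to 2 FPKM, where 24.8% of all transcripts were 1.5-fold apart, have no known error.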
